A study of Mus musculus with 8 samples.

Results

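Complement is the innate system in which plasma proteins mark targets for uptake, and the 8 genes described here encode its early components and the receptors for its released fragments: C1qa, C1qb, C1qc, C3, C3ar1, C5ar1, Cfp and Cfb. They were found as the rows of the deposited count matrix that carry these symbols. All 8 were present, among 32285 genes. The rows were found by symbol alone, but the members were chosen with earlier results of these data known. The transcripts were counted in droplets, cell by cell, with the 3′ kit of 10x Genomics, in sorted CD45+CD11b+ cells, a gate for myeloid leukocytes, from heart and blood of 4 mice. Recipients of the strain Mx1Cre:c-Myb fl/fl had been given bone marrow of stroke donors (2 mice) or of control donors (2 mice). All 4 recipients carry an interferon-inducible Cre and floxed c-Myb, through which host blood-forming cells can be removed. Ages, the donors' strain and what control donors underwent are not given in the sources used here, and neither is the way heart cells were released from the tissue. Heart and blood cells of a mouse were marked with different hashtag antibodies and pooled into 1 library, whereas stroke and control marrow never shared a library. Barcodes were assigned to mice by matching their number to the one each sample bears in its description, which no file states and on which each stroke and control comparison rests.

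After filtering, 9446 barcodes remained, 4754 of heart and 4692 of blood, with 652 to 1466 heart and 961 to 1347 blood barcodes per mouse. The 2 libraries of stroke marrow held 15771782 and 16482961 gene UMIs (unique molecular identifiers, each a counted transcript), and those of control marrow 10059365 and 12509034. Clusters were made without the 8 genes and were named from marker genes, and 7 heart and 6 blood classes had at least 20 barcodes in every mouse. Levels are CPM, a gene's UMIs scaled to the total UMIs of the barcodes summed in a mouse, organ and class, with mean ± SD over mice. Although the gate is myeloid, 523 heart and 1228 blood barcodes were B cell-like and 170 and 486 were NK cell-like. Blood of stroke replicate 2 stood apart, with 75.6% B cell-like barcodes against 6.14% to 10.5% in the other 3 mice. Control replicate 1 was male-type by Xist and Ddx3y and the other 3 mice were female-type, and Cfp lies on the X chromosome. Between 5 and 9 barcode sequences per library also occurred in another library.

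C1q is the recognition molecule of the classical pathway and is assembled from the A, B and C chains encoded by C1qa, C1qb and C1qc. Most plasma complement proteins come from the liver, but C1q is made mainly by macrophages and dendritic cells, and properdin (Cfp) mainly by leukocytes. C3 is the central component, cleaved into C3a and the target-binding C3b. Factor B (Cfb) supplies the protease of the alternative pathway's C3 convertase, and properdin stabilises that enzyme. C3a is sensed by the receptor C3ar1, and C5a, a strong attractant of neutrophils, by C5ar1.

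The 3 C1q genes lie side by side on chromosome 4 (GRCm38, GENCODE vM21, all on the minus strand). C1qb occupies 136880129 to 136886187, C1qc 136889804 to 136893065 and C1qa 136895917 to 136898803, with gaps of 3616 and 2851 bases between neighbours. C3 lies at 57203970 to 57228136 and Cfb at 34856374 to 34862518 on chromosome 17, C3ar1 at 122847138 to 122856161 on chromosome 6, C5ar1 at 16246743 to 16259540 on chromosome 7, and Cfp at 20925454 to 20931555 on chromosome X. All 8 genes are on the minus strand. The sequences just upstream of the start sites of C1qb, C1qc and C3ar1 are shown because these genes shared 1 pattern over the classes, with nearly all heart UMIs in macrophage-like cells. They come from RefSeq (GRCm38.p6) and keep only bases before both the RefSeq and the GENCODE start. They span chr4:136886201-136886450, chr4:136893066-136893164 and chr6:122856162-122856407 in the order C1qb, C1qc and C3ar1, and are written 5′ to 3′ along the gene, on the minus strand. Capitals mark CTTCCTC, the reverse complement of the PU.1-type motif GAGGAAG, in C1qc and TATAAA in C3ar1.
C1qb: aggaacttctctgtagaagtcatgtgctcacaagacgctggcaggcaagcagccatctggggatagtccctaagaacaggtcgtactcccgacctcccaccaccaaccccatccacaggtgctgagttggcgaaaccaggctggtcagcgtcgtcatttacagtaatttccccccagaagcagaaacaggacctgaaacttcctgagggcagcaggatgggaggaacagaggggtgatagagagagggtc
C1qc: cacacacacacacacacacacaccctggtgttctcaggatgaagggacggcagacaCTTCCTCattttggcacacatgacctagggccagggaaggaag
C3ar1: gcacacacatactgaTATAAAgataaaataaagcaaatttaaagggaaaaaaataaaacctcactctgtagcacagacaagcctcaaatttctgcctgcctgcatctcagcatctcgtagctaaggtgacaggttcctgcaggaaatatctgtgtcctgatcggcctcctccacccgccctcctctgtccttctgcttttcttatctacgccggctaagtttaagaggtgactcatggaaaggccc

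RefSeq windows of 250 bases before to 50 after the start were available for 6 of the 8 genes (C1qb, C1qc, C3, C3ar1, C5ar1 and Cfp) and were searched on both strands. GAGGAAG matched 1 of these 6 windows, that of C1qc at base -194 from the start site, and 13.5% of 27025 windows, 1 per gene. TATAAA matched 2 of 6, C3ar1 at base -235 and C3 at base 14 after the start, and 14.2% of all windows. The core of interferon response elements and TTCNNNGAA (STAT type) matched none of the 6, against 2.79% and 8.47% of all windows. No listed motif was shared by the C1q genes with a window. A match is a string of letters and does not show binding.

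Transcripts of the C1q chains were concentrated in heart macrophage-like cells of every mouse. C1qa stood at 6500 and 6487 CPM with stroke marrow and at 4568 and 6788 CPM with control marrow in these cells, a mean of 6086 ± 1021 CPM (SD, n = 4 mice). C1qb averaged 5519 CPM and C1qc 3659 CPM, with control replicate 1 lowest for each chain, at 4434 and 2810 CPM. Control replicate 1 also contributed the fewest macrophage-like barcodes, 198 against 580 to 713 in the other mice. Of all heart UMIs of C1qa, 93.2% to 97.7% per mouse lay in macrophage-like barcodes, which were 30.4% to 48.6% of heart barcodes. Levels of all members by class are drawn in the map of mean CPM.

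**Figure D1:**
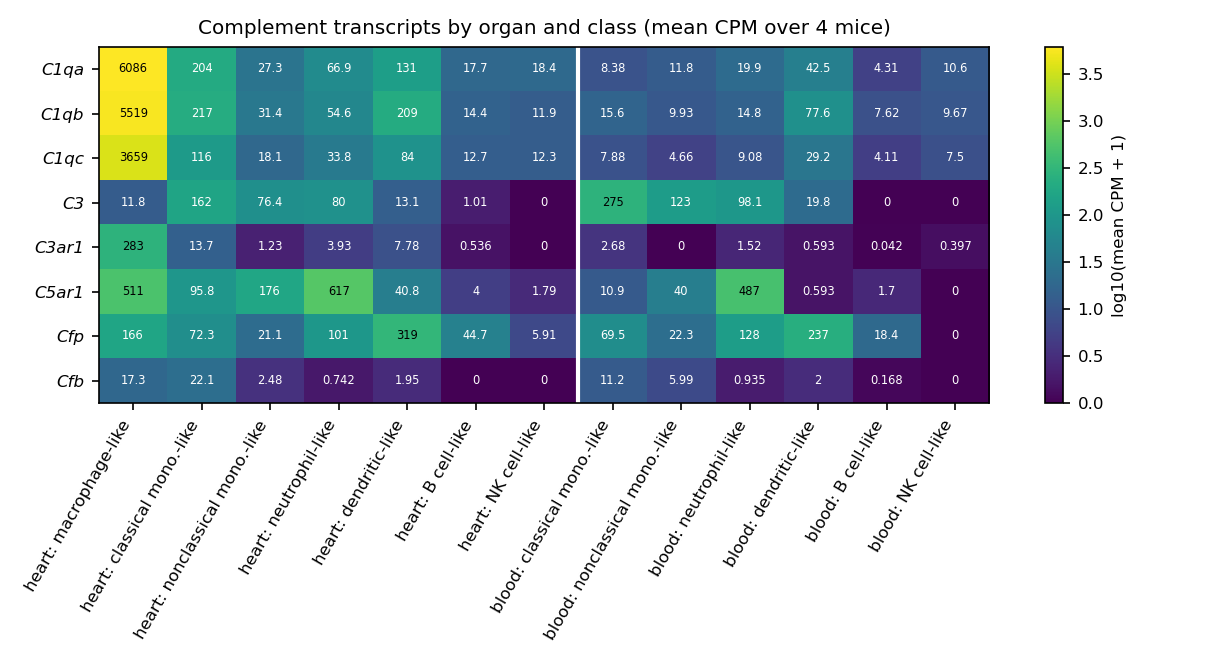
Mean level of each gene (rows) in 7 heart and 6 blood classes (columns), in CPM over 4 mice, with the colour on a scale of log10(mean CPM + 1). C1qa, C1qb, C1qc and C3ar1 are highest in heart macrophage-like cells, C5ar1 in heart neutrophil-like cells at 617 CPM, C3 in blood classical monocyte-like cells at 275 CPM and Cfp in heart dendritic cell-like cells at 319 CPM.

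Single barcodes carried all C1q chains together. At least 1 UMI of every chain was found in 95.9% and 94.5% of heart macrophage-like barcodes with stroke marrow and in 92.9% and 93.3% with control marrow. After each barcode was thinned to 1000 UMIs these shares were 90.9% and 88.9% with stroke marrow, against 82.5% and 88.9% with control marrow. No chain was found in 0.281% to 1.21% of these barcodes. The chains also kept a steady proportion: of the C1q UMIs in macrophage-like cells, C1qa took 38.7% to 40.4%, C1qb 35.3% to 37.5% and C1qc 23.7% to 24.3% per mouse.

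Other classes held little C1q, and much of it sat in few barcodes. Heart classical monocyte-like cells had 182 and 24.5 CPM of C1qa with stroke marrow and 391 and 218 CPM with control marrow, and in each mouse 1 barcode held 33.3% to 53.2% of these UMIs. None of the C1q chains was found in 76.9% to 85.3% of barcodes of this class. Lymphoid cells, which should lack C1q, also held some: C1qa averaged 17.7 ± 10.8 CPM in heart B cell-like, 18.4 ± 17.4 CPM in heart NK cell-like, 4.31 ± 2.74 CPM in blood B cell-like and 10.6 ± 6.16 CPM in blood NK cell-like cells. In heart B cell-like cells of control replicate 1, 25 of the 29 C1qa UMIs were in 1 barcode. Thinned to 1000 UMIs, 1.94% to 8.11% of heart classical monocyte-like barcodes had a C1qa UMI, against 0% to 7.94% of heart NK cell-like barcodes, and these ranges overlap. The unthinned shares were 9.17% to 13.4%, at median depths of 5162 to 6304 UMIs, and 0% to 11.1%, at 2540 to 3880 UMIs. Below macrophage-like cells, ranges of neighbouring classes overlapped at each step of the order for C1qa and C1qc. Blood held 196 UMIs of C1qa, 311 of C1qb and 145 of C1qc in all. Of these, classical monocyte-like cells held 52, 110 and 44, dendritic cell-like cells 37, 66 and 25, and B cell-like cells 37, 52 and 35. In stroke replicate 2, 1 blood dendritic cell-like barcode held 29 of the 30 C1qa UMIs of that class.

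**Figure D2:**
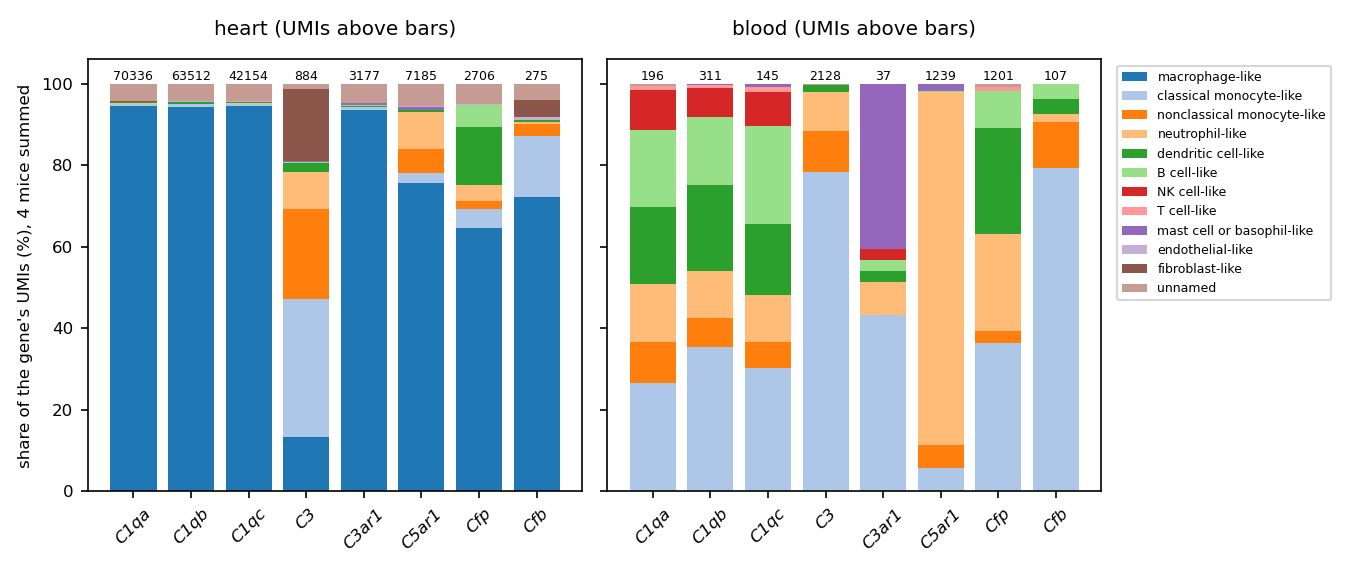
Share of each gene's UMIs (percent, vertical axis) by class in heart (left) and blood (right), with the 4 mice summed and the number of UMIs above each bar. Macrophage-like cells fill most of every heart bar except C3, and blood C3 and C5ar1 lie mainly in classical monocyte-like and neutrophil-like cells.

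C3 had a different distribution: among the 13 classes with enough barcodes in every mouse it was highest in classical monocyte-like cells of blood. In blood classical monocyte-like cells C3 stood at 287 and 275 CPM with stroke marrow and 280 and 257 CPM with control marrow. The heart cells of the same class had 160 and 215 CPM with stroke marrow and 102 and 169 CPM with control marrow, below blood in all 4 mice. Blood nonclassical monocyte-like cells averaged 123 ± 35.6 CPM of C3, blood neutrophil-like cells 98.1 ± 16.5 CPM and heart neutrophil-like cells 80 ± 16.9 CPM, and these ranges overlap. Macrophage-like cells averaged 11.8 ± 3.2 CPM and held 8.9% to 20.4% of heart C3 UMIs. A cluster of 21 fibroblast-like heart barcodes, a cell type outside the gate, held 156 of the 884 heart C3 UMIs, between 0% and 28.1% per mouse, at a pooled 1194 CPM. No C3 UMI was found in 1228 blood B cell-like barcodes, which allows up to 0.415 CPM, or in 486 blood and 170 heart NK cell-like barcodes, which allow up to 1.85 and 5.93 CPM. These limits are 3 counts over the 4 mice and cover counting error only.

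Cfp, encoding properdin, had its highest mean in dendritic cell-like cells in each organ. In heart dendritic cell-like cells it stood at 238 and 477 CPM with stroke marrow and 288 and 274 CPM with control marrow, and in blood at 166 and 490 CPM with stroke marrow and 182 and 110 CPM with control marrow. Stroke replicate 2 was the highest mouse in both organs. Heart macrophage-like cells had 161 and 171 CPM of Cfp with stroke marrow and 156 and 176 CPM with control marrow. That range overlaps the one of blood dendritic cell-like cells and lies below that of heart dendritic cell-like cells. Cfp averaged 128 ± 34.4 CPM in blood neutrophil-like cells, whose range overlaps that of blood dendritic cell-like cells, and in control replicate 2 it was higher there (157 CPM) than in dendritic cell-like cells (110 CPM). Heart neutrophil-like cells averaged 101 ± 15.5 CPM. Among B cell-like cells it averaged 44.7 ± 15 CPM in heart and 18.4 ± 6.36 CPM in blood, and in 486 blood NK cell-like barcodes no UMI was found, which allows up to 1.85 CPM. Cfb was sparse, with 275 heart and 107 blood UMIs in all, 199 of the heart UMIs in macrophage-like barcodes. Its mean was 22.1 ± 17.4 CPM in heart classical monocyte-like, 17.3 ± 5.83 CPM in heart macrophage-like and 11.2 ± 7.88 CPM in blood classical monocyte-like cells, and these ranges overlap.

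The receptors for C3a and C5a differed in breadth. C3ar1 was at 273 and 300 CPM with stroke marrow and 274 and 286 CPM with control marrow in heart macrophage-like cells, and these cells held 92% to 97.2% of its heart UMIs. The next of the 13 classes, heart classical monocyte-like cells, averaged 13.7 ± 14.3 CPM (mast cell or basophil-like barcodes, too few for a class, had 264 CPM in heart and 326 CPM in blood, pooled over mice), and 499 blood nonclassical monocyte-like barcodes held no UMI, which allows up to 1.71 CPM. C5ar1 was found in neutrophil-like cells of both organs and in heart macrophage-like cells at levels whose ranges overlap. Heart neutrophil-like cells had 712 and 573 CPM of C5ar1 with stroke marrow and 514 and 669 CPM with control marrow. Heart macrophage-like cells had 553 and 471 CPM with stroke marrow and 486 and 536 CPM with control marrow, and blood neutrophil-like cells 449 and 417 CPM with stroke marrow and 642 and 442 CPM with control marrow. Macrophage-like cells, the larger class, held 73.6% to 78.7% of heart C5ar1 UMIs, and neutrophil-like cells 77.1% to 90.7% of those in blood. At least 1 C5ar1 UMI was found in 59.6% to 67.6% of heart neutrophil-like barcodes and 0% to 1.33% of heart B cell-like barcodes, whose median depths were 2028 to 2217 and 5037 to 5928 UMIs.

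Within heart macrophage-like cells, Cfp varied more between clusters than the C1q chains did. The class joined clusters 3, 4 and 13, with 980, 974 and 123 heart barcodes. Among the leading genes of cluster 3 were the antigen presentation genes Cd74, H2-Eb1 and H2-Aa, among those of cluster 4 F13a1 and Mrc1, and among those of cluster 13 Cd207 and Cxcl13. Cfp averaged 100 ± 20.6 CPM in cluster 3, 200.4 ± 40.9 CPM in cluster 4 and 329.9 ± 109 CPM in cluster 13, and the ranges over mice in clusters 4 and 13 overlap while that of cluster 3 (86.4 to 130.2 CPM) lies below both. C1qa averaged 5308 ± 1300 CPM in cluster 3, 6779 ± 752 CPM in cluster 4 and 6693 ± 480 CPM in cluster 13. The C1qa ranges of clusters 3 and 4 overlap, as do those of clusters 4 and 13, whereas cluster 3 (3360 to 6006 CPM) lies just below cluster 13 (6044 to 7089 CPM). C3ar1 averaged 249 ± 23.3, 316.8 ± 24.6 and 300.2 ± 22.9 CPM in clusters 3, 4 and 13, and C5ar1 531 ± 71, 478 ± 38 and 647 ± 112 CPM. The C3ar1 range of cluster 3 (217 to 272 CPM) lies below that of cluster 4 (291 to 348 CPM) and overlaps that of cluster 13. The clusters were derived from the same cells, so no test was made of these differences.

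**Figure D3:**
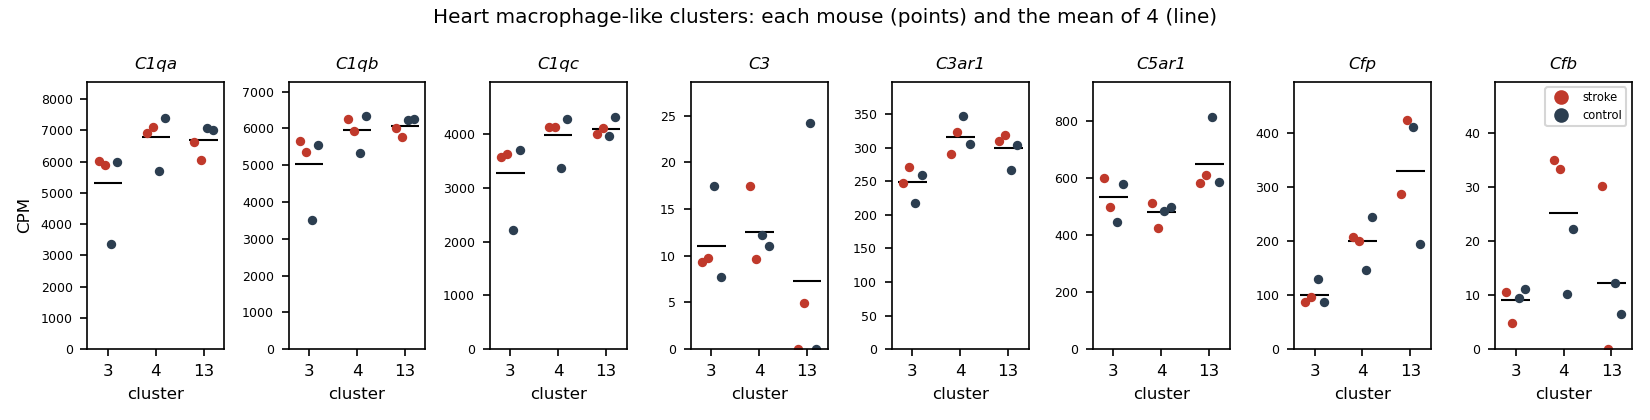
Level of each gene (CPM, vertical axis) in the 3 heart macrophage-like clusters, with 1 point per mouse and a line at the mean of 4. Cfp is lowest in cluster 3 in every mouse, and the C1q chains of control replicate 1 lie lowest in cluster 3.

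Cfp also differed when macrophage-like barcodes were split by markers of resident macrophages. Barcodes with a UMI of Lyve1, Timd4 or Folr2, which mark long-lived tissue macrophages, numbered 1438, and 639 had none. With such a UMI, Cfp averaged 193 ± 12.8 CPM, against 90.6 ± 20.1 CPM without, and the ranges over mice (181 to 205 CPM with and 75.7 to 120 CPM without) do not overlap. C3ar1 averaged 305 ± 20 against 237 ± 26.6 CPM, and its ranges (283 to 326 CPM with and 199 to 259 CPM without) do not overlap either. C1qa averaged 6538 ± 705 against 5059 ± 1238 CPM and Cfb 19.7 ± 8.66 against 8.84 ± 3.47 CPM, with ranges that overlap. C5ar1 was at 524 ± 29.6 and 495 ± 80.8 CPM. Barcodes with such a UMI were deeper, at median depths of 4805 to 5639 UMIs against 3613 to 4969, and the part of depth in these differences was not tested.

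The comparison of heart with blood asks which members differ between the organs of the same mouse, and 4 of the 8 rose in heart when all sorted cells were summed. C1qa averaged 3018 ± 1004 CPM in heart and 9.2 ± 3.81 CPM in blood (log2 fold change 8.39, SE 0.27, adjusted p = 0.000246). C1qc was higher by 8.08 on the log2 scale (SE 0.21, adjusted p = 0.000246), C1qb by 7.68 (SE 0.35, adjusted p = 0.000696) and C3ar1 by 6.23 (SE 0.40, adjusted p = 0.00137), each in 4 of 4 mice. The tests were edgeR quasi-likelihood tests with the mouse as a block and Benjamini-Hochberg adjustment over 11929 genes, of which 15.4% were called and 10.1% were higher in heart. Heart held macrophage-like cells and blood 1 such barcode, and 17 of the 23 macrophage markers used for naming were also higher in heart and 0 lower. The summed macrophage markers stood at 12309 to 23893 CPM in heart and 648 to 3397 CPM in blood, and in sums over all cells a larger share of a cell type and more RNA per cell cannot be told apart.

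For the other 4 members the difference between the organs did not pass edgeR's test in all cells, while DESeq2 also called C5ar1 (adjusted p = 0.000204) and Cfp (0.00795), 6 members in all. C5ar1 averaged 312 ± 80.2 CPM in heart and 67.4 ± 52.4 CPM in blood (log2 fold change 2.66, SE 0.81, adjusted p = 0.0865), and Cfp 122 ± 8.87 and 61.2 ± 20.6 CPM (1.06, SE 0.28, adjusted p = 0.0582), both higher in heart in 4 of 4 mice. C3 averaged 38.4 ± 9.65 CPM in heart and 113 ± 64.4 CPM in blood (-1.29, SE 0.59, adjusted p = 0.2), lower in heart in 3 of 4 mice. Cfb averaged 11.4 ± 5.82 CPM in heart and 5.66 ± 3.5 CPM in blood (1.15, SE 0.67, adjusted p = 0.292), higher in heart in 3 of 4 mice. Blood of stroke replicate 2, mostly B cell-like, bears on these values: without that mouse, or without B cell-like clusters, 7 members were called, against 40% and 37.9% of all genes in these fits, with C3 lower in heart (-1.90 without the mouse, -1.64 without the clusters) and C5ar1 (1.89 and 2.32) and Cfp (0.75 and 0.76) higher in heart.

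Within classes present in both organs, 18 pairs of a member and a class could be tested. Of these, 14 differed between heart and blood by edgeR and 12 by DESeq2. Over all genes, edgeR called 4103 of 30863 pairs of a gene and a class, and DESeq2 1961. A pair could pass the filter on low counts through either organ alone, so pairs high only in heart could enter the count. The 14 include C1q pairs of dendritic cell-like cells that entered in this way, so the count does not show how often members differ. C5ar1 was higher in heart in both monocyte-like classes. Heart nonclassical monocyte-like cells had 172 and 152 CPM with stroke marrow and 189 and 189 CPM with control marrow, and the blood cells of the same mice 31.5 and 31.9 CPM with stroke marrow and 55.8 and 40.9 CPM with control marrow. The 4 heart values all exceed the 4 blood values (log2 fold change 2.27, SE 0.18, edgeR adjusted p = 1.86e-26 over 5418 genes, of which 17.2% were called). Heart classical monocyte-like cells had 118 and 83.9 CPM of C5ar1 with stroke marrow and 61.1 and 120 CPM with control marrow, against 11 and 8.67 CPM with stroke marrow and 10.1 and 13.9 CPM with control marrow in blood (3.26, SE 0.22, adjusted p = 2.57e-12 over 6083 genes, 18.2% called). Again no heart value fell within the blood range. A C5ar1 UMI was found in 22.9% to 34.7% of heart and 4.55% to 7.02% of blood classical monocyte-like barcodes, and 1 barcode held 6.78% to 20% of the heart UMIs per mouse. Thinned to 1000 UMIs the shares were 3.88% to 12.2% in heart and 0.3% to 3.17% in blood. C5ar1 averaged 511 CPM in heart macrophage-like cells, and 617 CPM in heart and 487 CPM in blood neutrophil-like cells. The part of RNA from those cells in the monocyte-like differences was not tested.

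C5ar1 was also higher in heart among neutrophil-like cells, by 0.61 on the log2 scale (SE 0.14, adjusted p = 0.00282 over 3573 genes, 22.9% called), in 3 of 4 mice. This call was lost without stroke replicate 1 (adjusted p = 0.0841) and with doublets taken from hashtags alone (log2 fold change 0.19, adjusted p = 0.344). C3 went the other way in both monocyte-like classes: it was lower in heart than in blood by 0.61 in classical (log2 fold change -0.61, SE 0.13, adjusted p = 0.000627) and by 0.47 in nonclassical monocyte-like cells (log2 fold change -0.47, SE 0.16, adjusted p = 0.0301), each in 4 of 4 mice. The nonclassical call was lost without either stroke mouse or without control replicate 2, with adjusted p of 0.125, 0.299 and 0.081, and with DESeq2 (0.419), and it held in 7 of 14 alternatives. In neutrophil-like cells C3 averaged 80 CPM in heart and 98.1 CPM in blood and did not pass the test (adjusted p = 0.836). Cfp was higher in heart among B cell-like cells (1.53, SE 0.27, adjusted p = 0.00121 over 6757 genes, 9.16% called), in 3 of 4 mice. It did not pass in classical monocyte-like (adjusted p = 0.47), neutrophil-like (0.676) or dendritic cell-like cells (0.0629), though in the last it passed without stroke replicate 2 (9.7e-05).

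**Figure D4:**
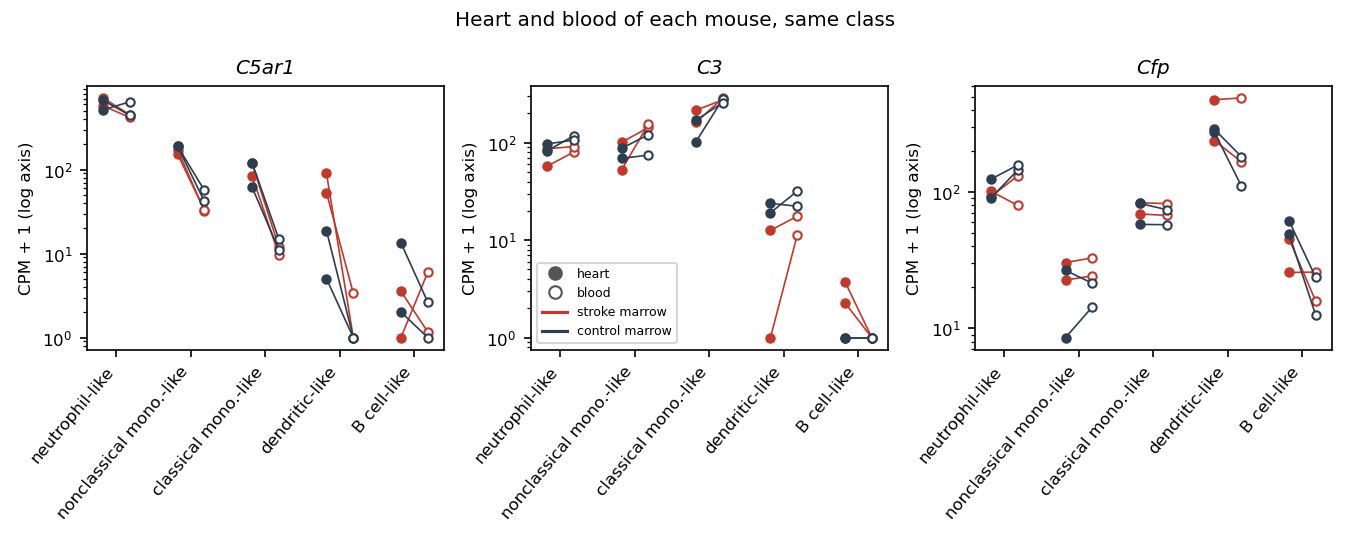
C5ar1, C3 and Cfp in heart (filled points) and blood (open points) of each mouse within 5 classes, as CPM + 1 on a log axis, with a line joining the organs of a mouse and its colour giving the donor group. C5ar1 is higher in heart in all 4 mice in both monocyte-like classes, and C3 is lower in heart in all 4 mice in the classical and nonclassical classes.

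Measured differences in cell state accompany these calls. Most heart and blood cells of a class fell in different clusters: 11 and 2 for classical monocyte-like, 6 and 7 for nonclassical monocyte-like, 9 and 1 for neutrophil-like cells. Fos and Atf3 were among the leading genes of cluster 11, Nr4a1 and Nfkbiz of cluster 6. A list of 10 early response and heat shock genes, added after the clusters were seen, summed to 10009 to 11023 CPM in heart and 580 to 846 CPM in blood classical monocyte-like cells. The same list gave 6935 to 7794 CPM in heart and 495 to 649 CPM in blood nonclassical monocyte-like cells, and 15644 to 18901 CPM in heart and 2536 to 3127 CPM in blood neutrophil-like cells. Its part in the C5ar1, C3 and Cfp differences was not tested.

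The C1q chains were called higher in heart within several classes, at levels far below macrophage-like cells. In classical monocyte-like cells C1qa was higher by 4.84 (SE 0.31, adjusted p = 8.62e-13), C1qb by 3.84 (SE 0.27) and C1qc by 4.11 (SE 0.35) on the log2 scale, in 4 of 4 mice each. Without control replicate 1 these differences were 4.18, 3.24 and 3.30, and without control replicate 2 they were 5.55, 4.50 and 4.49. In dendritic cell-like cells C1qa was higher by 2.37 (SE 0.52, adjusted p = 0.0108 over 5497 genes, 7.13% called), C1qb by 2.53 and C1qc by 2.35. This fit held 4 members, and the fit of blood dendritic cell-like cells alone held 1. C1q chains thus passed the filter on low counts through heart, where they are high, and no conclusion is drawn from these calls. In neutrophil-like cells C1qa was higher by 2.52 (SE 0.47, adjusted p = 0.000332, 3 of 4 mice) and C1qb by 1.83 (SE 0.47, 4 of 4 mice). The neutrophil-like fit held 5 members and that of blood neutrophil-like cells alone held 4, so passage through heart also occurred in this class. There 1 barcode held 20% to 93.8% of the C1qa UMIs and 25% to 66.7% of the C1qb UMIs of a mouse. These neutrophil-like differences were 1.94 and 1.28 without control replicate 1, C1qb was 2.54 without stroke replicate 1, and with doublets taken from hashtags alone they were 6.79 and 6.34. The 3 dendritic cell-like calls were each lost when 1 mouse was left out, C1qa without either control mouse, C1qb without stroke replicate 1 and C1qc without stroke replicate 1 or control replicate 1. All 3 were lost without the mouse block (adjusted p of 0.23, 0.234 and 0.202), and DESeq2 did not call C1qa (0.193). Without stroke replicate 2, C1qb was higher by 4.39 and C1qc by 4.19, and without control replicate 2 C1qa was higher by 1.66. In heart dendritic cell-like cells 1 barcode held 42.9% to 50.8% of the C1qa UMIs of a mouse. Of the 13 macrophage markers tested in classical monocyte-like cells, 6 were higher and 1 was lower in heart. The sum of all 23 macrophage markers in this class stood at 3835 to 7999 CPM in heart and 4235 to 6143 CPM in blood, with Timd4 at 0 in heart. The part of macrophage RNA in these C1q differences was not tested.

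The comparison the study was built for, stroke against control marrow, called 0 of the 8 members in heart. Across all heart cells C1qa stood at 3878 and 3470 CPM with stroke marrow and 1581 and 3140 CPM with control marrow (adjusted p = 0.655 by edgeR, for a log2 fold change of 0.64 with SE 0.33). C3ar1 stood at 166 and 163 CPM with stroke marrow and 94.1 and 133 CPM with control marrow (0.53, SE 0.17, adjusted p = 0.602). C1qb (0.62), C1qc (0.64) and C5ar1 (0.49) also had both stroke mice above both control mice, whereas C3 (0.21), Cfb (0.68) and Cfp (0.09) overlapped. The groups were apart in this direction for 5 of 8 members and for 19.7% of 12415 genes tested. edgeR called 0 of these genes (0%) at an adjusted p under 0.05 and DESeq2 34, while 982 had an unadjusted p under 0.05. Among the members, 1 (C3ar1) had an unadjusted p under 0.05, and DESeq2 called 0.

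The shares of macrophage-like and neutrophil-like cells moved with these values. Macrophage-like cells were 48.6% and 46.8% of heart barcodes with stroke marrow, against 30.4% and 41.9% with control marrow. The sum of the 23 macrophage markers stood at 23893 and 22534 CPM with stroke marrow and 12309 and 20616 CPM with control marrow. Neutrophil-like cells were 10.1% and 11.4% of heart barcodes with stroke marrow, against 8.74% and 6.59% with control marrow, and the 15 neutrophil markers summed to 8375 and 12626 CPM with stroke marrow and 3545 and 6043 CPM with control marrow. Within macrophage-like cells no member was called. C1qa differed by 0.20 (SE 0.19), C1qb by 0.17 (SE 0.17) and C1qc by 0.19 (SE 0.18) on the log2 scale, C3ar1 by 0.04 (SE 0.14), C5ar1 by 0.01 (SE 0.15) and C3 by -0.03 (SE 0.35), each at an adjusted p of 1 after rounding. Cfp averaged 166 ± 7.13 CPM with stroke marrow and 166 ± 14 CPM with control marrow (n = 2 mice each). Cfb was at 24.1 and 18.4 CPM with stroke marrow and 9.97 and 16.6 CPM with control marrow (0.60, SE 0.29), the 1 member of 8 with both stroke mice above both controls, against 14.1% of 10434 genes. The C1q values turned on control replicate 1: without it the differences were -0.06, -0.04 and -0.05 for C1qa, C1qb and C1qc. Without control replicate 2 they were 0.53, 0.42 and 0.49 and were called, along with 1.01% of all genes, but control replicate 1 then stood alone and was assumed to vary like the stroke mice. Its macrophage-like cells also had the lowest sum of macrophage markers (31850 CPM, against 37929 to 41864 in the other mice) and the highest of classical monocyte markers (547 CPM, against 118 to 207), whose part was not tested.

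**Figure D5:**
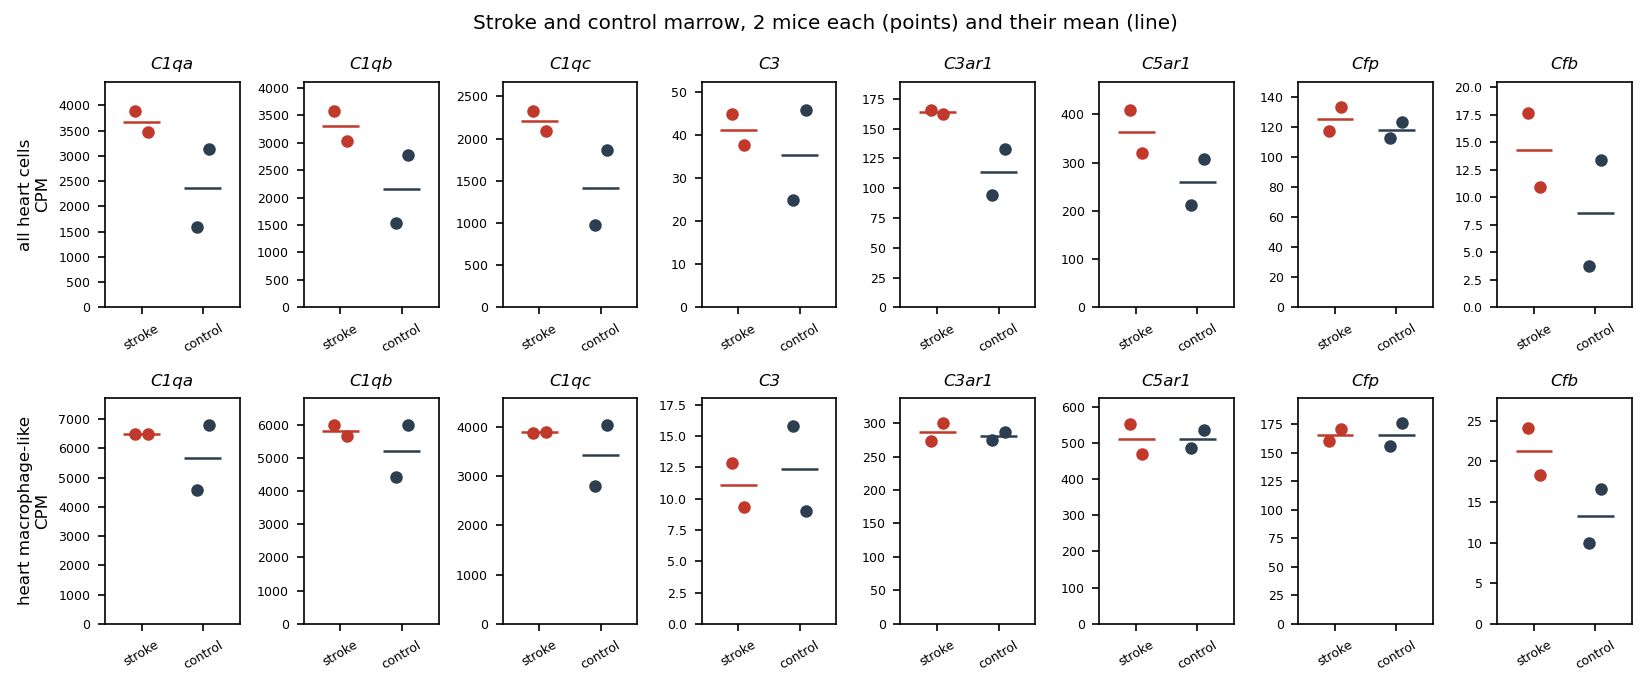
Level of each gene (CPM, vertical axes starting at 0) with stroke marrow (left in each panel) and control marrow (right), as 1 point per mouse and a line at the mean, for all heart cells (top) and heart macrophage-like cells (bottom). Both stroke mice lie above both control mice for C1qa, C1qb, C1qc, C3ar1 and C5ar1 in all heart cells, and for Cfb alone in macrophage-like cells.

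In the other heart classes none of 34 tested pairs of a member and a class, macrophage-like cells included, passed edgeR's test. 7 had an unadjusted p under 0.05 and DESeq2 called 0, and over all genes 0.0354% of pairs passed. Among these 7 pairs was C5ar1 in a rare class. C5ar1 in heart dendritic cell-like cells was at 52.2 and 89.1 CPM with stroke marrow and 4.03 and 17.8 CPM with control marrow (2.74, SE 0.61, adjusted p = 0.212), in 23 and 29 against 65 and 63 barcodes, and 1 barcode held 47.1% to 100% of these UMIs per mouse. In these cells the neutrophil markers summed to 134 and 1043 CPM with stroke marrow and 197 and 127 CPM with control marrow, and the macrophage markers to 1161 and 2327 CPM with stroke marrow and 1067 and 1860 CPM with control marrow, and their part was not tested. C1qa in heart classical monocyte-like cells was lower in both stroke mice (-1.64, SE 0.51, adjusted p = 0.888). That C1qa difference passed without stroke replicate 1, control replicate 1 or control replicate 2 and not without stroke replicate 2. In each of these fits 1 mouse stood alone for its group and was assumed to vary like the other mice, so no conclusion is drawn from them. C1qb in heart B cell-like cells averaged 4.46 ± 6.3 CPM with stroke marrow and 24.3 ± 7.15 CPM with control marrow (-1.98, SE 0.58, adjusted p = 0.29). Of the 26 UMIs of control replicate 1, 23 were in 1 barcode. This C1qb difference passed without stroke replicate 2, again with 1 mouse alone in its group.

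In blood, none of the 8 members was called between stroke and control marrow, and the groups overlapped for every member. C5ar1 over all blood cells was at 69.3 and 6.54 CPM with stroke marrow and 134 and 59.7 CPM with control marrow (-1.35, SE 1.10, adjusted p = 0.967), and C3 at 156 and 18.3 CPM with stroke marrow and 129 and 150 CPM with control marrow (-0.67, SE 0.96). The low value in each is stroke replicate 2, whose blood was mostly B cell-like. Of 11459 genes, edgeR called 0 (0%), DESeq2 called 4 and 68 had an unadjusted p under 0.05, while both stroke mice lay above both controls for 12% and below for 13.4%. Without stroke replicate 1, so that stroke replicate 2 alone stood for its group and was assumed to vary like the control mice, 4 members and 28.6% of all genes were called. The members were lower: C3 (-2.86), C5ar1 (-3.81), Cfp (-1.16) and Cfb (-3.15). Within blood classes 0 of 15 pairs passed with edgeR or DESeq2 and 1 had an unadjusted p under 0.05 (C3 in nonclassical monocyte-like cells, 148 ± 8.23 CPM with stroke marrow and 96.9 ± 32.8 CPM with control marrow, 0.60, SE 0.26, adjusted p = 1), against 0.00813% of all gene and class pairs called. In classical monocyte-like cells, the main C3 class, C3 averaged 281 ± 8.83 CPM with stroke marrow and 269 ± 16 CPM with control marrow (0.06, SE 0.16).

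Whether the stroke difference itself differed between heart and blood was tested as an interaction over the 8 sums, and 0 of 8 members and 0 of 12952 genes (0%) passed, with 582 genes and 0 members at an unadjusted p under 0.05 and none called by DESeq2. The largest terms were those of C5ar1 (2.48, SE 1.15) and Cfb (1.88, SE 1.08), with adjusted p of 0.722 for both. Without stroke replicate 1, 5 members and 27.2% of all genes passed, and without stroke replicate 2, 1 member (C5ar1) and 1.26% of all genes did.

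The wider complement list held 47 further genes with a row, and 18 could be tested between heart and blood over all cells. Of these, 7 were higher in heart and 0 lower, against 10.1% of all genes higher. The median log2 fold change was 0.73 over the list and -0.05 over all genes. A gene could pass the filter on low counts through heart alone. Vsig4, Serping1, Fcna and C4b did not enter the fit over blood cells, so the count and the median do not show a lean of the list. Vsig4, a macrophage receptor for C3b, averaged 74.3 ± 29.7 CPM in heart and 0.461 ± 0.519 CPM in blood (7.38, SE 0.56, adjusted p = 0.00203). Serping1 (6.82), the C1 inhibitor, Fcna (6.50), a ficolin of the lectin pathway, C4b (5.77), a component of the classical convertase, Colec12 (4.74), a scavenger collectin, and Calr (0.72), which binds C1q, were also higher. In heart macrophage-like cells Colec12 averaged 198 CPM, Vsig4 162 CPM, Fcna 87.7 CPM and C4b 67.1 CPM, whereas Serping1 averaged 0.314 CPM there. Between stroke and control marrow 0 of 21 tested genes of the list passed edgeR's test over all heart cells and 0 of 15 over all blood cells, where 982 and 68 of all genes had an unadjusted p under 0.05.

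Over the 13 means of an organ and a class, the members fell into unlike patterns. Pearson's r of log2(CPM + 1) was 0.98 to 0.99 between the C1q chains and 0.94 to 0.95 between each chain and C3ar1, but 0.11 to 0.20 between a chain and C3. The 13 means share libraries and the free RNA in them, so these values are descriptions. Among genes with at least 50 CPM in some class, Vcam1 was nearest to C1qa (0.96), C1qc (0.96) and C3ar1 (0.97), followed by Pmp22 and Slco2b1 for C1qa, Pmp22 and 2610203C22Rik for C1qc, and Itga9 and Cpne8 for C3ar1. C1qb was nearest to Snx24 (0.96), Dab2 and Rab3il1. C3 was nearest to Gm9733 (0.98), Klra2 and Dgkg, C5ar1 to Gm34455 (0.95), Fnip1 and A530013C23Rik, Cfp to Slc49a4 (0.93), Evi2a and Gpr146, and Cfb to Trem2 (0.96), Gab1 and Msr1.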

How the data were processed

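The authors deposited raw UMI counts of genes and hashtags in every cell barcode, without normalization, in 1 matrix for all 4 libraries. They were made with Cell Ranger 7.1.0 and build mm10, per the submitters' processing notes. Everything else was computed here. Organ was called with HTODemux (Seurat 5.3.0, 0.99 quantile) per library, and 954 barcodes with both hashtags and 101 with neither were left out of 11130. Barcodes needed 200 genes and at most 10% mitochondrial UMIs. Scrublet (scanpy 1.11.5) was run per library, and 343 barcodes above a common score of 0.15 were removed, 2.89% to 4.5% per library, because its automatic thresholds ran unevenly from 0.148 to 0.523. Leiden clustering (leidenalg 0.10.2, resolution 1, 2000 variable genes, 30 components, 20 neighbours) left out the members, the wider complement list and sex-linked genes, and gave 21 clusters. Names came from marker lists, with a mean z-score of at least 1 and an unrelated second class under 0.75 of it, limits set after the clusters were seen. Cluster 15 with macrophage and neutrophil genes, 1 cycling cluster and 1 with cardiomyocyte genes stayed unnamed.

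Within each mouse, organ and class the counts were added up and tested with edgeR 4.0.16 (quasi-likelihood, TMM, filterByExpr, Benjamini-Hochberg threshold 0.05 over all genes of a fit), heart against blood with the mouse as a block. DESeq2 1.42.0 was an alternative. The edgeR steps were tested on simulated data. Of the expression rows, 2 GFP transgenes were left out of all tests. The labels name no litter or transplant batch, so p-values refer to these mice alone. edgeR estimates spread with help from all genes of a fit, so very small p-values do not measure the spread of a single gene between mice. Coordinates come from GENCODE vM21, which held 32158 of 32287 IDs. Named were all 8 members, every called gene of the wider list in all cells (1 is not reported here), and the 3 genes most like each member. The members, gene lists and tests were chosen with earlier results of these data known. Alternatives comprised other scalings, filters, doublet rules, organ calls, cluster settings and fits with a mouse left out.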

Additional observations from a re-analysis of the deposited data

Results flagged for a closer look

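Over 81 sets of 4 mice with at least 20 UMIs of a member in a class, 11 held a mouse whose gap to the nearest other mouse was above Dixon's critical value for its share of the range, and chance flags about 1 set in 20. Control replicate 1 stood apart in heart macrophage-like cells, low for C1qa (4570 CPM, against 6490 to 6790) and C1qc (2810 CPM, against 3880 to 4040). It was also high for C5ar1 in blood neutrophil-like cells (642 CPM, against 417 to 449) and low for C1qa in blood nonclassical monocyte-like cells (2.23 CPM, from 1 UMI, against 13.7 to 16). Stroke replicate 2 stood apart in blood, low for Cfp over all cells (30.4 CPM, against 70.3 to 72.5). In its blood dendritic cell-like cells C1qa was at 155 CPM, C1qb at 289 CPM and C1qc at 108 CPM, where a single barcode of 25 held 96.7%, 66.1% and 85.7% of the UMIs of each. In its heart dendritic cell-like cells C1qb was at 414 CPM, against 125 to 163 in the other mice. Stroke replicate 1 was high for C1qc in heart neutrophil-like cells (59.4 CPM, against 22.9 to 28.7, from 20 UMIs) and for C1qb in blood NK cell-like cells (31.7 CPM, against 0 to 4.41). The causes were not tested.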

How the results depend on the processing

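Of 809 values of single members under an alternative, 718 kept their direction and side of the threshold, 18 lost a call, 32 gained one and 41 changed sign, and the causes were not tested. Between heart and blood over all cells 4 members were called, 4 to 7 with a mouse left out and 7 without B cell-like clusters. Within classes 14 were called, 10 to 14 with a mouse left out, and 23 with no filter on low counts or with doublets taken from hashtags alone. Between stroke and control marrow 0 members were called over all heart cells, 0 with any mouse left out and 5 with no filter. Over all blood cells 0 were called and 0 to 4 with a mouse left out, and for the interaction 0 and 0 to 5. Within heart classes 0 were called, 1 to 7 with a mouse left out, 4 with no filter, 1 with doublets from hashtags alone, 5 with automatic doublet thresholds and 3 when complement genes entered the clustering. Within blood classes 0 were called, 0 to 4 with a mouse left out and 1 with no filter. The automatic thresholds and the crossed block below were chosen after seeing the data. Each fit of stroke against control marrow, or of the interaction, with a mouse left out had 1 mouse alone in its group. For most of these alternatives the share of all genes called is not given. Their counts of members are therefore not a result about complement genes.

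The labels do not say that replicate numbers pair the mice. Deviations of same-numbered mice correlated at -0.334 over 8310 genes in heart and -0.261 over 8115 in blood. With 2 mice per group that differ in cell make-up, these values cannot settle whether the numbers pair mice. With the replicate block 4 members were called within heart classes and 0 in the other stroke comparisons. With the numbers crossed, 1 member was called within heart classes and 0 elsewhere. The shares of all genes called in these block fits are not given, so no conclusion is drawn from the counts.

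The sign changes concern differences that did not pass the test, and ranges here are over fits with a mouse left out. Between stroke and control marrow over all heart cells, C3 ran from -0.13 to 0.73 and Cfp from -0.02 to 0.2. Over all blood cells, C1qa ran from -0.35 to 1.39, C1qb from -0.19 to 2.18, C1qc from -0.05 to 1.29, C3 from -2.86 to 0.17, C3ar1 from -1.66 to 0.06, Cfp from -1.16 to 0.0035 and Cfb from -3.15 to 0.44. There, C3ar1 was 0.03 and Cfp 0.08 without B cell-like clusters. The interaction ran from -0.17 to 0.61 for C1qa, from -1.07 to 0.49 for C1qb and from -0.11 to 0.38 for C1qc, and without B cell-like clusters was -0.48 for C1qa, -0.4 for C1qc and -0.04 for Cfp. In macrophage-like cells, C1qa ran from -0.06 to 0.53, C1qb from -0.04 to 0.42, C1qc from -0.05 to 0.49, C3 from -0.46 to 0.32, C3ar1 from -0.03 to 0.12, C5ar1 from -0.1 to 0.12 and Cfp from -0.08 to 0.11. There, C3 was 0.06 and Cfp -0.02 with organ taken from the hashtag ratio, C3 was 0.4 with doublets from hashtags alone, and C3 was 0.33 and Cfp -0.04 with automatic doublet thresholds. At Leiden resolution 2, C3 was 0.35, C3ar1 -0.04 and C5ar1 -0.05, and with complement genes in the clustering C3 was 0.03 and Cfp -0.0019. Between heart and blood neutrophil-like cells, C3 was 0.05 with stricter cell filters and 0.13 with automatic doublet thresholds.

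The mean share of heart macrophage-like barcodes with a C1qa UMI was 95.6% thinned to 1000 UMIs and 97.9% thinned to 2000. Depth limits Cfb, C3ar1 outside macrophage-like cells, and blood C1q, each resting on few UMIs per class.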

Other observations

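Cells too few for a class in every mouse also held members. Mast cell or basophil-like barcodes, 20 of heart and 18 of blood over the 4 mice, held 17 and 15 C3ar1 UMIs, or 264 and 326 CPM, and the blood barcodes alone held 15 of the 37 blood C3ar1 UMIs. C5ar1 had 49 UMIs in the heart and 19 in the blood barcodes of this class, or 762 and 412 CPM. Fibroblast-like heart barcodes, 21 in all, had 1194 CPM of C3 and 84.2 CPM of Cfb, from 156 and 11 UMIs. These values are sums over mice, with no replicate check.

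The deposited matrix has rows for 2 GFP transgenes, and no source used here says which cells carry them. Of heart macrophage-like barcodes, 284 had a UMI of either and 1793 had none. C1qa averaged 4873 ± 1568 CPM with such a UMI and 6440 ± 682 CPM without, C3ar1 255 ± 40.7 and 293 ± 13.5 CPM, C5ar1 452 ± 60.4 and 529 ± 40.3 CPM, and Cfp 171 ± 18.8 and 163 ± 17.2 CPM (SD, n = 4 mice). Barcodes with a transgene UMI had median depths of 5179 to 8439 UMIs, against 4388 to 4979, and the part of depth was not tested.

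Cr1l, a membrane regulator of complement, was lower in heart than in blood neutrophil-like cells (log2 fold change -0.77, SE 0.20, edgeR adjusted p = 0.00841). It is named here because it passed within a class.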
